A study of Mus musculus with 7 samples.

Results

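The apolipoprotein cluster on mouse chromosome 7 holds Apoe, Apoc1, Apoc4 and Apoc2, with Tomm40 and Clptm1 at its flanks. These 6 genes, chosen by name, were described among the 22680 genes of the deposited table. Apoc1 was already known to be higher in Uhrf1-/- than in wild-type cells when the cluster was chosen, so every value of the 6 genes between genotypes is given as a description with no test. The other genes were taken in because they lie beside Apoc1 and Apoe. All 6 have a row in the table, and 4 of them (Apoe, Apoc1, Tomm40 and Clptm1) reached the mean of 1 FPKM that the comparison over all genes required.

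Apolipoproteins are the protein part of lipoprotein particles, which carry cholesterol and triglycerides outside cells. Apoe is the ligand through which many particles bind lipoprotein receptors, and it is made mainly by hepatocytes and macrophages. In adult mice Apoe has also been found on blood stem and progenitor cells, where it takes part in cholesterol efflux. Apoc1 slows the receptor uptake of particles and inhibits lipoprotein lipase, the enzyme that releases fatty acids from them, while Apoc2 is the cofactor that activates this enzyme. Uhrf1, the gene deleted in the study, is needed to copy DNA methylation at replication, because its product recognises hemimethylated CG sites and recruits Dnmt1 to them.

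RNA was sequenced from cells sorted from fetal livers of C57BL/6 mice at 13.5 days post coitum. The groups were 3 libraries of Uhrf1-/- LSK cells, 1 library of wild-type LK cells and 3 libraries of wild-type LSK cells. LSK cells carry Sca-1 and c-Kit without lineage markers and hold the stem cells and multipotent progenitors, while LK cells have c-Kit but lack Sca-1 and include later progenitors. Per the labels' protocols, about 10000 LSK cells at over 95% purity went into a library. The sources used here do not say how Uhrf1 was deleted or how many fetuses a library combined.

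The labels were checked first. Uhrf1 stood at 10.2, 8.78 and 18.6 FPKM in the Uhrf1-/- LSK libraries, at 115.9 FPKM in LK cells and at 63.0, 66.8 and 112.8 FPKM in wild-type LSK cells. FPKM scales the fragments of a gene by its length and by the size of the library. Ly6a, which encodes Sca-1, stood at 36.9 to 96.4 FPKM in Uhrf1-/- LSK cells, at 0.321 FPKM in LK cells and at 26.4 to 56.8 FPKM in wild-type LSK cells, and Kit was above 24 FPKM in all 7 libraries. The progenitor gene Cd34 was lower in Uhrf1-/- libraries without overlap, at 134 to 162 FPKM in Uhrf1-/- LSK, 94.6 FPKM in LK and 194 to 361 FPKM in wild-type LSK cells. The 8 markers of the sorted cells summed to 269 to 352 FPKM in Uhrf1-/- LSK, 154 FPKM in LK and 429 to 597 FPKM in wild-type LSK cells, and 0 of the 8 passed in limma. Lineage markers of the sort summed to 6.67 to 9.51 FPKM in Uhrf1-/- LSK, 23.1 FPKM in LK and 10.8 to 13.5 FPKM in wild-type LSK cells, with 0 of 3 tested genes passing in limma and Cd3e listed at 0 in all 7 libraries. The part of these differences in the Apoe and Apoc1 values was not tested. Estimated totals lay between 16808501 and 25803042 reads per library. The FPKM values of wild-type LSK replicate 2 summed to 60.5% of the median library, and those of the other 6 to between 90.2% and 119.6%. In the LSK libraries of both genotypes, replicate 3 differed from replicates 1 and 2 in the stimulation-induced gene Junb, with levels of 250.4, 215 and 22.4 FPKM in Uhrf1-/- cells, and 198, 188 and 5.31 FPKM in their wild-type counterparts.

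On GRCm38 the 6 genes all lie on the minus strand of chromosome 7. Read along that strand they come in the order Tomm40 (chr7:19701313-19715442), Apoe (chr7:19696244-19701310), Apoc1 (chr7:19689480-19692659), Apoc4 (chr7:19678084-19681460), Apoc2 (chr7:19671579-19677941) and Clptm1 (chr7:19631580-19665030). The annotated end of Tomm40 lies 3 bases from the outermost annotated start of Apoe, and a read-through gene, Gm44805, covers both Apoc4 and Apoc2. Since these neighbours share a strand, reads from the overlap of Gm44805 could not be told apart from those of Apoc2 and Apoc4 even with stranded counting.

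The bases before the Apoe start sites are shown because Apoe was the most abundant gene of the cluster and because Uhrf1 acts through CG dinucleotides, which are in capitals. RefSeq (GRCm38.p6) lists 3 Apoe starts in its promoter table, and promoter windows were found for 5 of the 6 genes. The first window is the 250 bases before the outermost of these starts (chr7:19699189-19699438, minus strand), and the second is the 250 bases before the next (chr7:19698622-19698871, minus strand). Both lie inside the gene's longest annotated span. Neither window overlaps an annotated exon, and both are written 5′ to 3′.
Apoe start 1: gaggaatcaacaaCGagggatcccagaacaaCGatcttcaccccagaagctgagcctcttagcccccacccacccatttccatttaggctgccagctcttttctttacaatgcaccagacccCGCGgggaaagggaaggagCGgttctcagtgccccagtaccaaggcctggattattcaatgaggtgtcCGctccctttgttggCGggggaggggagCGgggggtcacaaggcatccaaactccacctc
Apoe start 2: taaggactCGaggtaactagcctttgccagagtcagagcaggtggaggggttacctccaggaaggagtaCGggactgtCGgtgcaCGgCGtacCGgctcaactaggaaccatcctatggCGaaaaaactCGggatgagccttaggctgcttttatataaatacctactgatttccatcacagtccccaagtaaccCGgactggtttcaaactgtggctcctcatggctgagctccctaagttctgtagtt

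The first window held 8 CG dinucleotides and the second 9, where the median of 32851 promoter windows of the same length was 6. The observed over expected CG ratio was 0.39 in the first window, 0.55 in the second and 0.64 in that of the third Apoe start, beside a median of 0.37 over all windows. Apoc2 had 6 CG and Apoc4 had 4 in their windows, while the broadly expressed flanking genes Tomm40 and Clptm1 had 16 and 22. DNA methylation itself was not measured. Both printed Apoe windows lacked the 4 GATA factor spellings searched on both strands, which were AGATAA, its variant AGATAG, and the forms TGATAA as well as TGATAG. The third Apoe start had AGATAG in its window (7.71% of all windows hold it), and Apoc2 had TGATAA (7.94% of all windows). TATAAA occurred at 2 places on opposite strands of the second Apoe window, in letters that partly overlap, and 12.4% of all windows hold it. That window was also the only one of the cluster's 7 with CANNTG, which 66.2% of all windows hold. The GC box letters GGGCGG were found 3 times before Tomm40, 2 times before Clptm1 and 1 time before Apoc4, and 32.7% of all windows hold them. These matches describe letters and not binding sites.

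Apoe was among the more abundant messages of Uhrf1-/- LSK cells. It stood at 2213, 2087 and 1927 FPKM in the Uhrf1-/- LSK libraries, at 306 FPKM in LK cells and at 890.4, 429 and 324 FPKM in wild-type LSK cells. All 3 Uhrf1-/- libraries were higher than every wild-type library of either cell type, and the lowest of them was 2.16 times the highest wild-type LSK library. By FPKM, Apoe ranked 77th, 87th and 93rd among all genes of the Uhrf1-/- LSK libraries, 459th in the LK library and 236th, 234th and 387th in the wild-type LSK libraries.

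The group mean of Apoe was 2075 ± 143 FPKM in Uhrf1-/- and 548 ± 301 FPKM in wild-type LSK cells (SD, n = 3 each), a ratio of 3.79. On the log2(FPKM + 1) scale the Uhrf1-/- mean was 2.05 higher, the 13th highest of the differences of 10608 tested genes. Taken by replicate number, the ratio was 2.49, 4.86 and 5.95 for numbers 1, 2 and 3. These differences in the ratio came with a narrow spread in Uhrf1-/- cells and a wide one in wild-type cells, since the coefficient of variation was 6.91% in Uhrf1-/- and 55.0% in wild-type LSK libraries. The values behind Apoe are deep, at an estimated 21473 to 24559 reads per Uhrf1-/- LSK library, 5221 reads in the LK library and 5856 to 9819 reads per wild-type LSK library.

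Apoc1, the next gene along the strand, was also higher in every Uhrf1-/- library. It stood at 186, 178 and 179 FPKM in Uhrf1-/- LSK libraries, at 81.7 FPKM in LK cells and at 51.5, 14.8 and 34.0 FPKM in wild-type LSK libraries. The Uhrf1-/- libraries lay within 1.04-fold of each other and the wild-type LSK libraries within 3.47-fold, with no overlap. The mean was 181 ± 4.50 FPKM in Uhrf1-/- and 33.5 ± 18.3 FPKM in wild-type LSK cells (SD, n = 3 each), a ratio of 5.41 and a log2 difference of 2.57, the 4th highest of all tested genes.

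The Apoc1 values rest on an estimated 866 to 896 reads per Uhrf1-/- LSK library, 537 reads in the LK library and 98 to 259 reads per wild-type LSK library. The ratio between genotypes was 3.62, 12.03 and 5.25 for replicate numbers 1, 2 and 3, and the highest of these rests on wild-type replicate 2, the library with the low FPKM sum. Without that library the log2 difference of Apoc1 was 2.09. With the FPKM values rescaled to 1 common sum in every library, an alternative chosen after seeing the data, Apoc1 stood at 179 to 189 units in Uhrf1-/- LSK cells and at 26.0 to 45.7 units in wild-type LSK cells, and Apoe at 2042 to 2243 units in Uhrf1-/- and 380.5 to 789 units in wild-type LSK cells. Over all tested genes, 489 of 10608 (4.61%) had all Uhrf1-/- LSK libraries above all wild-type LSK libraries and 653 (6.16%) had them all below, 10.8% together, and in the first set Apoe and Apoc1 are included, while Tomm40 and Clptm1 were not.

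**Figure D1:**
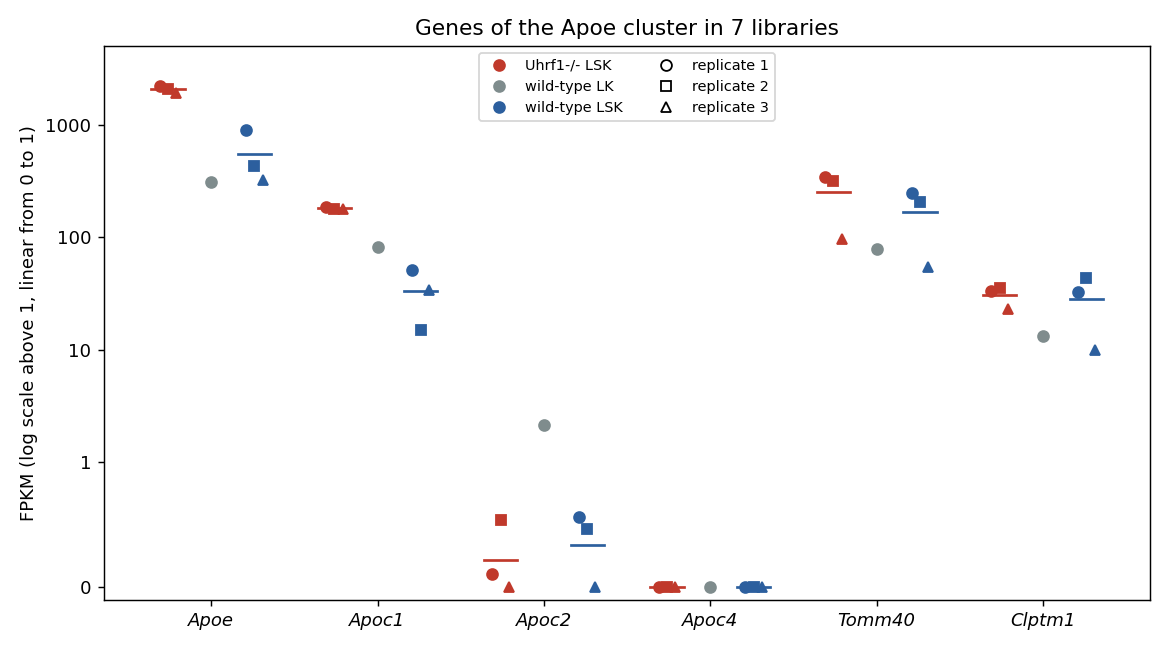
FPKM of the 6 genes in each library (log axis above 1, linear from 0 to 1), with Uhrf1-/- LSK in red, wild-type LK in grey and wild-type LSK in blue, a marker shape per replicate number and a bar at each group mean. Apoe and Apoc1 in Uhrf1-/- cells lie above every wild-type value, while Tomm40 and Clptm1 overlap between genotypes and are lowest in replicate 3 of each genotype.

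In LK cells the pair parted. Apoc1 was 2.44 times the wild-type LSK mean in the LK library and lay above all 3 wild-type LSK libraries. Of 10680 genes compared, 1141 (10.7%) were past 2-fold and above the wild-type LSK range in this library, so a place among them is common. Apoe in the LK library was 0.559 times the wild-type LSK mean and below each of the 3 wild-type LSK libraries in FPKM, the nearest being wild-type LSK replicate 3. It was not past 2-fold, as 1839 genes (17.2%) were in the lower direction. As a share of the count values the order of these 2 libraries turned, at 0.0239% in LK cells and 0.0227% in wild-type LSK replicate 3. With 1 LK library there was no test.

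Within a library, Apoe stood above Apoc1 by 11.9-, 11.7- and 10.8-fold in FPKM in Uhrf1-/- LSK cells, by 3.75-fold in LK cells and by 17.3-, 28.9- and 9.52-fold in wild-type LSK cells. The Uhrf1-/- values lay inside the wild-type LSK range, and the LK value lay below all 6 LSK libraries.

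**Figure D2:**
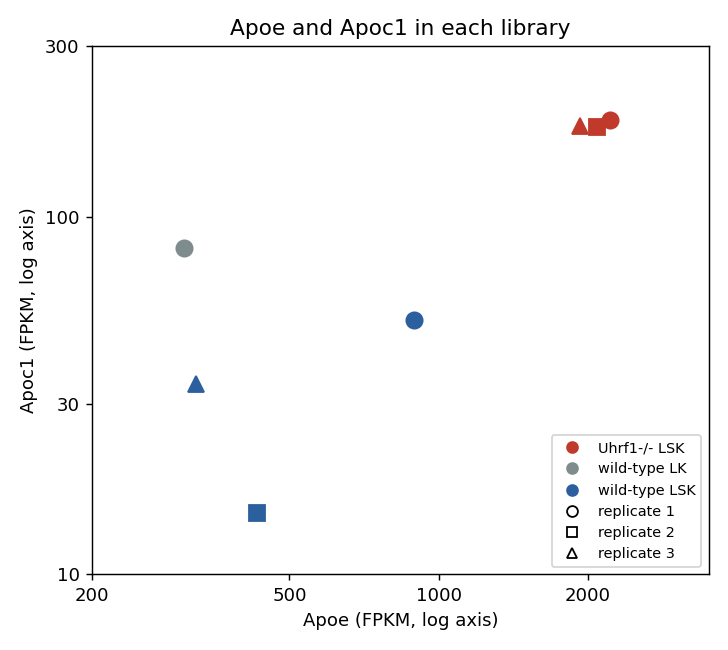
Apoc1 against Apoe in FPKM, both on log axes, 1 point per library with color for the group and shape for the replicate number. The 3 Uhrf1-/- LSK libraries sit together at the upper right, and the LK library combines the lowest Apoe (306 FPKM) with an Apoc1 level (81.7 FPKM) above all wild-type LSK libraries.

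The other apolipoprotein genes of the cluster were nearly silent. Apoc2, the lipase activator, stood at 0.107, 0.541 and 0 FPKM in Uhrf1-/- LSK cells, at 2.12 FPKM in LK cells and at 0.558, 0.461 and 0 FPKM in wild-type LSK cells. Its LSK values rest on 0 to 6 estimated reads per library and overlap between genotypes, and the LK value rests on 28 reads. Apoc4, a minor apolipoprotein known mainly from liver, was listed at 0 in all 7 libraries. A listed 0 can come from the counting where Gm44805 overlaps Apoc4 and Apoc2, though Gm44805 itself has no row in the table. Whether the annotation used for counting held Gm44805 is not given in the sources.

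The flanking genes overlapped between genotypes and were lowest in replicate 3 of each. Tomm40, the channel subunit of the mitochondrial outer membrane import complex, stood at 341, 314 and 96.4 FPKM in Uhrf1-/- LSK cells, at 78.4 FPKM in LK cells and at 248, 205 and 53.9 FPKM in wild-type LSK cells. Replicate 3 was lowest in both genotypes. The groups overlapped, with means of 250.8 ± 134 FPKM in Uhrf1-/- and 169 ± 102 FPKM in wild-type LSK cells (SD, n = 3 each). Within each replicate number Tomm40 was 1.38, 1.54 and 1.79 times as high in the Uhrf1-/- library, and its log2 difference of 0.63 became -0.046 without wild-type LSK replicate 3.

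Clptm1, which encodes a membrane protein known in neurons for holding back GABA-A receptor subunits, stood at 33.4, 35.5 and 22.9 FPKM in Uhrf1-/- LSK cells, at 13.1 FPKM in LK cells and at 32.4, 42.9 and 9.89 FPKM in wild-type LSK cells. The groups overlapped, and its log2 difference of 0.30 became -0.30 without wild-type LSK replicate 3. Replicate 3 was again the lowest library of each genotype, as it was for Junb, and the part of the replicate in these values was not tested. Set against Tomm40 in the same library, Apoe was 6.48-, 6.64- and 19.99-fold higher in Uhrf1-/- LSK cells and 3.90-fold higher in LK cells, beside at most 6.01-fold in wild-type LSK cells. Within each replicate number this ratio was larger in Uhrf1-/- cells, though Uhrf1-/- replicates 1 and 2 lay close to wild-type replicate 3.

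Genes around the cluster were taken by position, as all genes with any part within 250 kb of Apoe on the RefSeq annotation. There were 27 besides the 6 genes described above, of which 18 have a row in the table and 12 were tested. None of the 12 passed in limma (Benjamini-Hochberg over all 10608 genes), where 18 genes (0.17%) passed, 12 as higher (0.113%) and 6 as lower (0.0566%). In the same fit 1 of the 12 had an unadjusted p under 0.05, beside 591 of all 10608 tested genes. With the replicate number as a block, again 0 of the 12 passed, where 219 genes (2.06%) did, 131 as higher (1.23%) and 88 as lower (0.83%). The 12 differences ran from -0.41 to 0.71 on the log2 scale with a median of 0.25, beside a median of -0.03 over all tested genes, and 10 of the 12 were above 0. Only 4 of the 12 (Zfp296, Bcl3, Nectin2 and Pvr) kept their sign under every alternative tried.

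Zfp296, a zinc finger gene best known from pluripotent cells, had the largest difference of the 12, at 12.5, 11.6 and 7.17 FPKM in Uhrf1-/- LSK cells and 5.23 to 6.83 FPKM across wild-type LSK cells. Its log2 difference was 0.71 (SE 0.28), higher in 3 of 3 same-numbered pairs, and did not pass (limma adjusted p = 0.779). Bcl3, an atypical I-kappa-B protein that acts with NF-kB subunits, averaged 16.5 ± 2.71 FPKM in Uhrf1-/- and 10.9 ± 2.30 FPKM in wild-type LSK cells (SD, n = 3 each) and did not pass (log2 difference 0.57, limma adjusted p = 0.928). Nectin2, listed as Pvrl2, and Pvr encode related adhesion receptors on the side of Tomm40. Their log2 differences were 0.55 and -0.41, and neither passed (limma adjusted p = 0.942 for each). That of Nectin2 was 0.15 without wild-type LSK replicate 3 and 0.074 in the block fit without pair 3. Relb, an NF-kB subunit gene on the side of Clptm1, had a log2 difference of 0.43 that became -0.14 without wild-type LSK replicate 3. The remaining tested neighbours were Mark4, Bloc1s3, Trappc6a, Ppp1r37, Gemin7, Clasrp and Bcam, with log2 differences between -0.19 and 0.30. Nkpd1, Cblc, Gm19345, Ceacam16, Ceacam19 and Igsf23 fell short of the mean of 1 FPKM, and Cblc was listed at 0 in all 7 libraries. Of these untested genes, Igsf23 and Nkpd1 did not overlap between genotypes. Igsf23 stood at 0.634 to 1.65 FPKM in Uhrf1-/- and 0.0671 to 0.477 FPKM in wild-type LSK cells. Nkpd1 stood at 0.0926 to 1.09 FPKM in Uhrf1-/- and at most 0.0901 FPKM in wild-type LSK cells. The share of all untested genes without overlap was not computed.

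**Figure D3:**
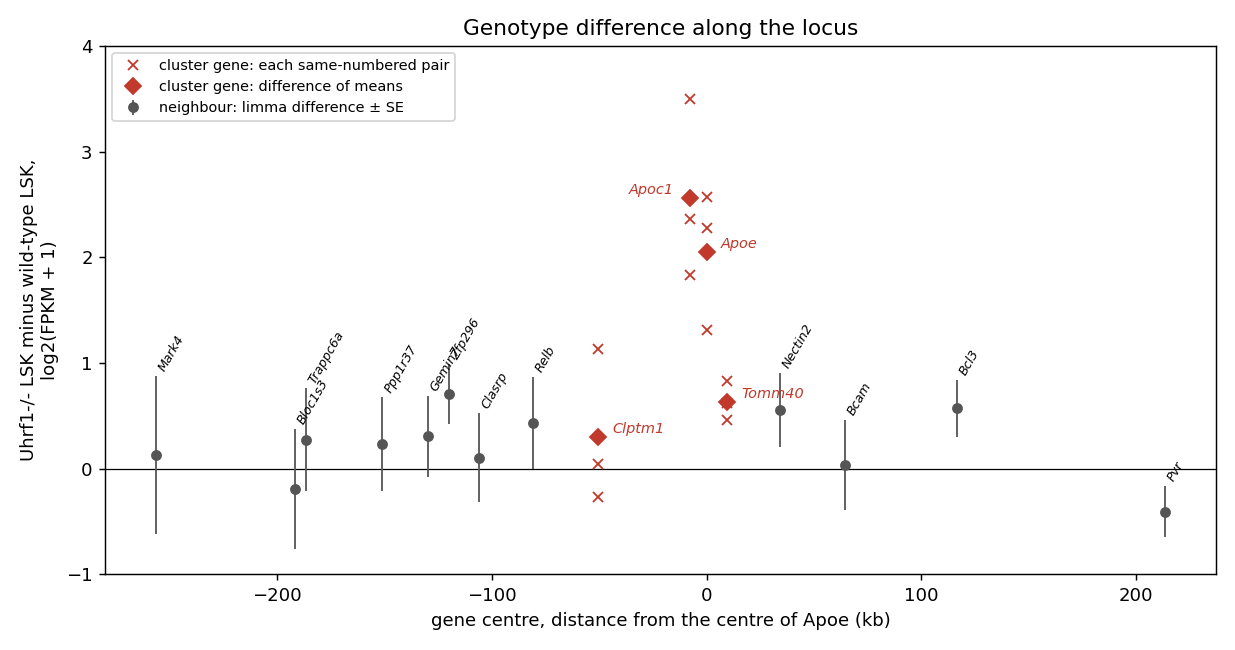
Difference between Uhrf1-/- and wild-type LSK cells on the log2(FPKM + 1) scale against the distance of each gene's centre from that of Apoe, in kb. Grey points are the 12 tested neighbours with the limma SE, and red diamonds are the cluster genes with a cross for each same-numbered pair of libraries. Apoc1 (2.57) and Apoe (2.05) lie above the neighbours, which range from -0.41 to 0.71.

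Receptors and partners of lipoproteins were read next, since Apoe acts through them. Of 28 listed genes 15 were tested, 0 passed in limma, and their median log2 difference was -0.08. An unadjusted p below 0.05 was reached by 1 of the 15, beside 591 of all 10608 tested genes. That gene was Sdc1, which encodes syndecan-1, a heparan sulfate proteoglycan that binds Apoe-containing particles. Sdc1 stood at 3.08, 3.12 and 3.21 FPKM in Uhrf1-/- LSK cells and at 7.06, 13.5 and 10.3 FPKM in wild-type LSK cells, with no overlap. Its log2 difference of -1.41 (SE 0.28), lower in 3 of 3 pairs, did not pass without the block (limma adjusted p = 0.104) and passed with the replicate block (limma adjusted p = 0.0031). In the block fit without pair 2 this call was lost (limma adjusted p = 0.176). Among genes too low to be tested, 5 of the list also had every Uhrf1-/- LSK value below every wild-type LSK value. Of these, the syndecan gene Sdc4 had the largest log2 difference (-1.03). It stood at 0.124 to 0.185 FPKM in Uhrf1-/- and 0.937 to 1.79 FPKM in wild-type LSK cells. Some of the others had very low levels in both genotypes. The share of all untested genes with such an order was not computed, so this count has no background beside it. Of the tested genes of the list, Scarb2, a lysosomal membrane protein, was the other one without overlap, with a log2 difference of -0.40 that did not pass (limma adjusted p = 0.942). Scarb1, the HDL receptor, was the most abundant gene of the list, at 39.3 to 42.0 FPKM in Uhrf1-/- and 35.2 to 55.6 FPKM in wild-type LSK cells.

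Genes of cholesterol efflux and of the LXR receptors, which switch on Apoe in macrophages, did not pass either. Of 23 listed genes 17 were tested, 0 passed in limma with or without the block, and the median log2 difference was -0.05. An unadjusted p below 0.05 was reached by 2 of the 17, beside 591 of all 10608 tested genes. These 2 were Nr1h3, which encodes LXR-alpha, and Arl4c, known as an LXR target. Nr1h3 stood at 0.575, 0.984 and 0.851 FPKM in Uhrf1-/- LSK cells and at 3.66, 1.29 and 2.36 FPKM in wild-type LSK cells, and Arl4c averaged 0.901 ± 0.264 and 2.35 ± 0.814 FPKM (SD, n = 3 each). Their log2 differences were -0.88 and -0.79, and neither passed (limma adjusted p = 0.547 and 0.571). Nr1h2, which encodes LXR-beta, stood far higher, at 88.4 to 96.4 FPKM in Uhrf1-/- and 51.1 to 83.1 FPKM in wild-type LSK cells, without overlap and without passing (limma adjusted p = 0.942). The efflux transporter Abca1, at 0.505 to 1.08 FPKM in Uhrf1-/- and 0.907 to 1.56 FPKM in wild-type LSK cells, fell short of the mean required for the test.

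Of 24 listed cholesterol synthesis genes 22 were tested, and 0 passed in limma with or without the block and 0 reached an unadjusted p below 0.05. The list's median was -0.13 on the log2 scale. Hmgcs1, the synthase before HMG-CoA reductase, had the lowest difference at -0.59, and the sterol carrier Stard4 the highest at 0.52 (limma adjusted p = 0.942 for each). Of 12 lipases and their modulators 5 were tested, with 0 passing in either limma fit, 0 at an unadjusted p below 0.05 and a median of 0.05. Angptl4, a secreted inhibitor of lipoprotein lipase, averaged 27.6 ± 2.76 FPKM in Uhrf1-/- and 20.3 ± 2.04 FPKM in wild-type LSK cells (SD, n = 3 each; log2 difference 0.43), and the acid lipase gene Lipa had a difference of -0.35 (limma adjusted p = 0.942 for each).

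Few apolipoprotein genes at other loci were high enough to test. Of 14 listed genes 3 were tested (Apoa1, Apoa2 and Clu), with 0 passing in either limma fit and 0 at an unadjusted p under 0.05. Apoa1, the main HDL protein, stood at 1.22, 0.699 and 3.65 FPKM in Uhrf1-/- LSK cells, at 4.37 FPKM in LK cells and at 1.08, 0.411 and 0.444 FPKM in wild-type LSK cells. Apoa2 averaged 4.57 ± 0.998 FPKM in Uhrf1-/- and 3.22 ± 1.98 FPKM in wild-type LSK cells (SD, n = 3 each), and stood at 13.8 FPKM in LK cells, above all 6 LSK libraries. Their log2 differences were 0.68 and 0.51 (limma adjusted p = 0.942 for each). That of Apoa1 was 0.26 without Uhrf1-/- replicate 3, and that of Apoa2 was 0.098 without wild-type LSK replicate 2.

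**Figure D4:**
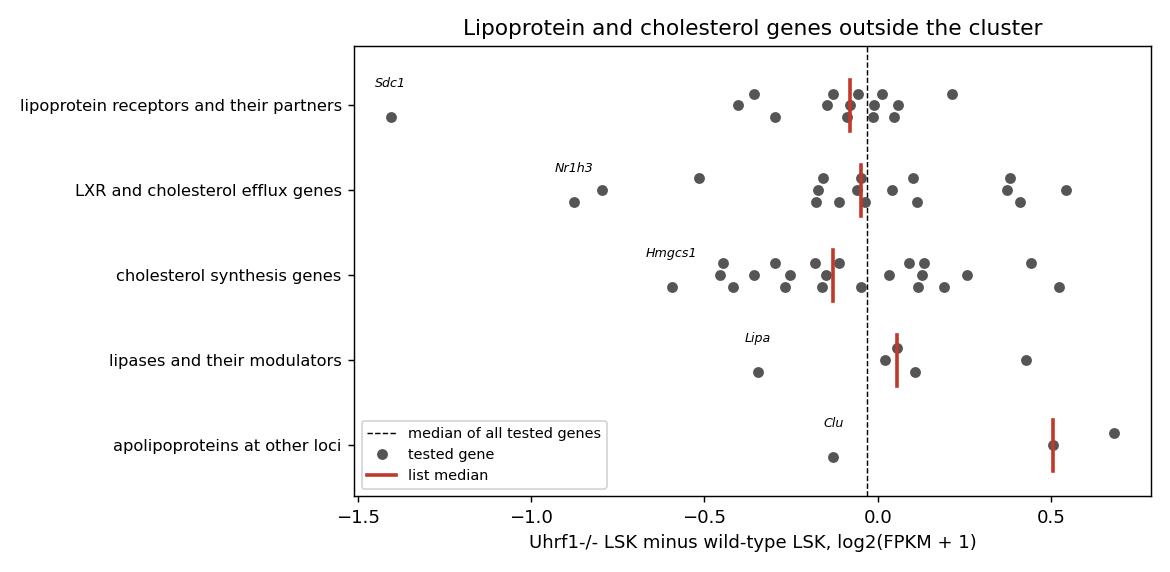
Difference between Uhrf1-/- and wild-type LSK cells on the log2(FPKM + 1) scale for the tested genes of 5 lists (points), with each list's median (red bar) and the median of all tested genes (dashed line, -0.03). The gene with the lowest difference of each list is named, and Sdc1 (-1.41) lies farthest out.

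Hepatocytes and macrophages make Apoe, so their markers were read in the same libraries. Of the hepatoblast markers, Alb was at most 2.62, Ttr at most 0.797 and Afp at most 3.73 FPKM in any library, and Apoa1 and Hnf4a at most 4.37 and 4.44 FPKM. Summed over all 20 hepatoblast markers, the level was 76.5 to 122.5 FPKM in Uhrf1-/- LSK, 57.3 FPKM in LK and 73.7 to 107.7 FPKM in wild-type LSK cells. Krt18 and Dlk1 had the highest levels of this list, and of its 7 tested genes 0 passed in limma. In a bulk sample, fewer cells of a type and less RNA per cell cannot be told apart.

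The 3 C1q genes, complement genes of macrophages, came in sum to 33.4, 35.4 and 2.12 FPKM in Uhrf1-/- LSK cells, to 0.771 FPKM in LK cells and to 146.5, 70.1 and 1.12 FPKM in wild-type LSK cells. In the wild-type LSK libraries the C1q sum and Apoe had the same order, highest in replicate 1 and lowest in replicate 3. Between genotypes they lay in opposite directions in numbers 1 and 2, where C1q was lower and Apoe higher in Uhrf1-/- cells. In replicate number 3, where C1q was near 0 in both libraries, Apoe was 5.95 times as high in the Uhrf1-/- library. The part of macrophages or of hepatoblasts in the Apoe values was not tested. Of the other defining macrophage markers, Adgre1 was at most 1.57 and Cd5l at most 1.04 FPKM in any library. All 20 macrophage markers summed to 68.8 to 191 FPKM in Uhrf1-/- LSK, 77.2 FPKM in LK and 87.4 to 288.7 FPKM in wild-type LSK cells. Of 7 tested, 1 passed as lower (Csf1r) and 0 as higher, beside 6 (0.0566%) and 12 (0.113%) of all 10608 tested genes.

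Markers of the erythroid, megakaryocyte and mast cell lineages held 6 genes that passed as higher in Uhrf1-/- LSK cells. Over all 10608 tested genes 12 (0.113%) passed as higher, and the lists were chosen with earlier results of these data known. The summed levels of the erythroid and of the megakaryocyte list overlapped between genotypes. The 8 transcription factors that the erythroid and megakaryocyte lineages share summed to 711 to 832 FPKM in Uhrf1-/- LSK, 611 FPKM in LK and 434 to 617 FPKM in wild-type LSK cells, and 2 of the 8 tested passed as higher in limma, Gata1 and Gata2. Of 9 tested megakaryocyte markers 2 passed as higher, Itga2b and Treml1, and the 14 listed genes summed to 336 to 488 FPKM in Uhrf1-/- LSK, 139.7 FPKM in LK and 234 to 409.9 FPKM in wild-type LSK cells. Of the mast cell and basophil markers 2 were tested and 1, Cpa3, passed as higher, and the 12 listed genes summed to 53.6 to 66.2 FPKM in Uhrf1-/- LSK, 84.8 FPKM in LK and 6.74 to 14.1 FPKM in wild-type LSK cells. Of 14 tested erythroid markers 1, Car1, passed as higher, and the sum of the list was 918 to 1057 FPKM in Uhrf1-/- LSK, 3296 FPKM in LK and 505 to 1028 FPKM in wild-type LSK cells. Each of these calls, and that of Csf1r, was kept with the replicate block, where 219 of 10608 genes (2.06%) passed. They ended without a filter on low values and without wild-type LSK replicate 1 or 2. In those fits limma called 0 genes in either direction, so Uhrf1 was not called there either. The LK library, with the highest erythroid sum, had the lowest Apoe in FPKM. As a share of the count values its Apoe (0.0239%) was above that of wild-type LSK replicate 3 (0.0227%). Apoc1 in the LK library (81.7 FPKM) lay above every wild-type LSK library and below every Uhrf1-/- library. The part of these cell types in the Apoe and Apoc1 values was not tested.

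Endothelial markers summed to 69.0 to 78.8 FPKM in Uhrf1-/- LSK, 13.1 FPKM in LK and 52.6 to 82.2 FPKM in wild-type LSK cells, and stromal markers to at most 3.64 FPKM in any library, with 0 of 6 and 0 of 1 tested genes passing in limma.

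**Figure D5:**
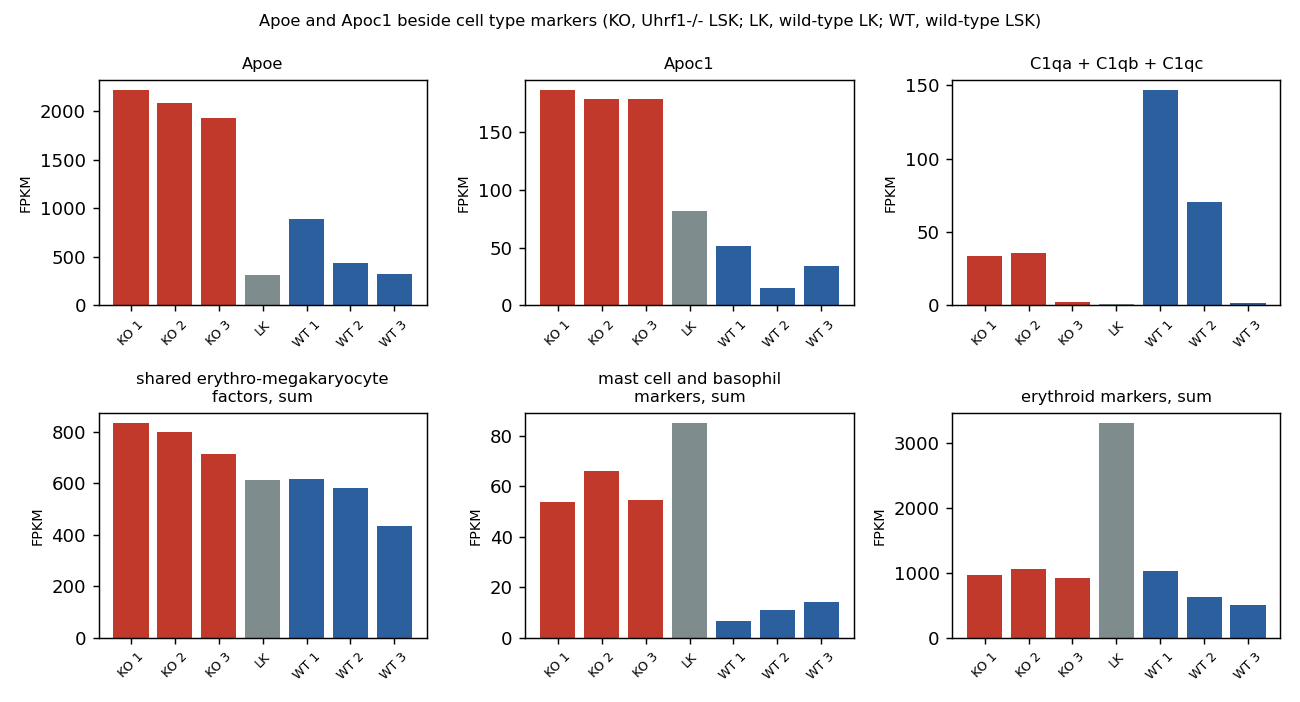
FPKM in each of the 7 libraries of Apoe, Apoc1, the C1q genes and the summed shared erythro-megakaryocyte factors, mast cell and basophil markers and erythroid markers, 1 bar per library (KO, Uhrf1-/- LSK, red; LK, wild-type LK, grey; WT, wild-type LSK, blue). Apoe and Apoc1 are highest in the 3 Uhrf1-/- libraries, the C1q sum is highest in wild-type replicate 1 (146.5 FPKM), and the erythroid sum is highest in LK cells (3296 FPKM).

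The genes whose levels ran most like those of Apoe and of Apoc1 were ranked by Pearson's r of log2(FPKM + 1) over the 7 libraries among 10649 genes. The 5 nearest to Apoe were Arhgdia (r = 0.992), Mdga1 (0.987), a membrane-anchored adhesion protein gene, Clec11a (0.983), which encodes a secreted growth factor, Fam117a (0.979) and the MHC class II gene H2-Ab1 (0.979). Mdga1 stood at 5.42, 4.56 and 4.74 FPKM in Uhrf1-/- LSK cells, at 1.13 FPKM in LK cells and at 2.23, 1.76 and 1.21 FPKM in wild-type LSK cells. Like Apoe, it was lowest in LK cells and was highest of the wild-type LSK libraries in replicate 1.

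The 5 nearest to Apoc1 were the interferon-inducible gene Xaf1 (r = 0.980), the UFM1 protease gene Ufsp1 (0.977), Smim5 (0.976), Sapcd1 (0.967) and the semaphorin receptor gene Plxna1 (0.962). Xaf1 stood at 28.7, 29.8 and 28.6 FPKM in Uhrf1-/- LSK cells, at 18.6 FPKM in LK cells and at 12.2, 6.45 and 13.9 FPKM in wild-type LSK cells, with the lowest value in wild-type replicate 2, as for Apoc1. The 2 sets of 5 share no gene. Between Apoe and Apoc1 themselves r was 0.787, which placed Apoc1 458th by likeness to Apoe and Apoe 185th by likeness to Apoc1 among the 10649 genes. These are values over 7 libraries that share genotype, replicate number and scaling, so many genes reach a high r, and no p is given. The genes named as nearest to Apoe or Apoc1 were chosen by r, so a shared order of libraries follows largely from that choice.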

How the data were processed

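RNA was measured in 7 libraries, grouped and numbered by their titles. The authors deposited 2 values per gene and library. FPKM was used as deposited by the authors. The second, named a count per the file headers, is not whole and was read as a scaled count signal as deposited by the authors. Its low values come in steps, a step being what 1 read is worth in that library. Of the low values above 0, 98.2% to 98.6% were within 0.02 of a whole number after division by the step. This share was not computed for higher values. Division by the step gave the estimated reads at all levels. The design gave a test for whole counts and another for FPKM, and the test for FPKM was followed. TopHat2 2.0.9, Cufflinks 2.1.1 and mm10 appear, with no role stated, per the submitters' processing notes. Annotation and strand setting are not given in the sources. Because FPKM is a share, a few very abundant genes lower the values of all others.

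The 6 LSK libraries were fitted in R 4.3.3 with limma 3.58.1 (log2(FPKM + 1), trend and robust moderation, two-sided, Benjamini-Hochberg, threshold 0.05), keeping genes that averaged 1 FPKM or more. The pseudocount of 1 understates the change of low genes. The fit was tested on simulated data. Nothing in the labels says that libraries came from separate animals, so the p-values cover only their spread, which may be technical. Libraries of the same number deviated together from their group means (r = 0.349, 0.332 and 0.645), all above 0.1. The numbers were therefore read as pairs, and a fit with the replicate block was run. Differently numbered libraries also passed 0.1, Uhrf1-/- replicate 1 with wild-type LSK replicate 2 (r = 0.213) and Uhrf1-/- replicate 2 with wild-type LSK replicate 1 (r = 0.159). Replicate 3 thus stood apart, while numbers 1 and 2 were only weakly separated as pairs. Reading the numbers as pairs comes from the data. Coordinates are from RefSeq on GRCm38, the assembly called mm10, matched by gene ID, and strands from GENCODE M21.

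The 6 genes, the 15 lists (233 entries, 230 found) and the tests were chosen with earlier results of these data known. Named genes are the 6, all tested neighbours within 250 kb, in each lipid list the genes that passed and the 2 with the largest difference, and the 5 genes most like Apoe and Apoc1. Csf1r, Gata1, Gata2, Itga2b, Treml1, Car1, Cpa3, Cd34, Sdc4, Igsf23, Nkpd1, Scarb1, Nr1h2 and Abca1 were named outside this rule after their values were seen. Alternatives were another pseudocount, no filter, other scalings, the count column, the block and leaving libraries out.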

Additional observations from a re-analysis of the deposited data

How the results depend on the processing

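The log2 difference between Uhrf1-/- and wild-type LSK cells was above 0 under every alternative run, from 1.74 to 2.47 for Apoe and from 2.09 to 2.95 for Apoc1. Leaving out wild-type LSK replicate 1 gave the highest value of each. Rescaling FPKM to 1 common sum per library, chosen after seeing the data, moved the median over all tested genes to -0.26, and relative to that median Apoe was 2.06 and Apoc1 2.59 higher. In LK against wild-type LSK cells, leaving out a library gave -1.01 to -0.28 for Apoe and 0.95 to 1.81 for Apoc1. Leaving out 1 library at a time gave -0.046 to 1.22 for Tomm40, -0.30 to 0.70 for Clptm1 and -0.14 to 0.72 for Relb, each negative only without wild-type LSK replicate 3. In the replicate block fit without pair 3, Clptm1 was -0.11 and Relb -0.0026. The cause was not tested.

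Over all genes limma called 12 higher and 6 lower. The replicate block called 131 and 88, no filter on low values 0 and 0 (with more genes tested), the count column 11 lower, the rescaled FPKM 11 lower, the block without pair 3 called 117 and 84 but without pair 2 only 13 and 8, and leaving out a library 0 to 3 higher and 0 to 1 lower. Of the lipoprotein receptor list 1 gene, Sdc1, passed with the replicate block and 1 in the block fit without pair 3, but 0 without pair 2. The block changed no other call of a lipid list or neighbour. Apoc2 was too low for the genotype test, at 0 to 6 estimated reads per LSK library.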
